A study of Mus musculus with 4 samples.

Results

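Mouse osteocalcin is encoded by a cluster of 3 genes, Bglap, Bglap2 and Bglap3, and their rows were read from the single-cell count tables of 4 libraries of sorted bone marrow cells. The 3 genes were taken by name from the 26600 genes that all 4 tables list. The cells came from male Col2:Td mice of strain B6SJL/F1, which carry Col2-Cre and a Rosa26 lsl-tdTomato reporter, so that cells in which the Col2-Cre was active, and their progeny, carry tdTomato (Td). Every group carried both alleles, and the groups differed in age: 1 month (2 mice), 1.5 months (3 mice), 3 months (3 mice) and 16 months (3 mice). Endosteal bone marrow cells were released from metaphyseal bone by protease digestion, and Td+ cells, taken as the Td+ peak or the brightest 1%, were sorted. The mice of an age were pooled into 1 library, so no comparison between ages has a replicate and none was tested. All intervals are exact 95% intervals and cover counting error only.

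Osteocalcin is a small secreted protein of the bone matrix whose glutamate residues are gamma-carboxylated by a vitamin K-dependent enzyme, which lets it bind calcium and mineral. It is made by mature osteoblasts and by osteocytes and is a common late marker of osteoblast differentiation. Bglap and Bglap2 are the members known from bone, while Bglap3, also called osteocalcin-related gene, was described from other tissues such as kidney. An undercarboxylated form in the circulation has been studied as a hormone.

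The 3 genes lie side by side on the minus strand of chromosome 3 in GRCm38 (GENCODE M21 annotation), Bglap3 at chr3:88368616-88372743, Bglap2 at chr3:88377736-88378699 and Bglap at chr3:88383501-88384464. The pseudogene Gm21956 lies between Bglap3 and Bglap2 and the pseudogene Gm6821 between Bglap2 and Bglap, and the protein-coding genes Paqr6 and Pmf1 flank the cluster. Each gene has 4 exons and a coding sequence of 288 bases, and these are printed because their few differences decide whether a read can be given to a member. Capitals mark bases that differ from Bglap:
Bglap: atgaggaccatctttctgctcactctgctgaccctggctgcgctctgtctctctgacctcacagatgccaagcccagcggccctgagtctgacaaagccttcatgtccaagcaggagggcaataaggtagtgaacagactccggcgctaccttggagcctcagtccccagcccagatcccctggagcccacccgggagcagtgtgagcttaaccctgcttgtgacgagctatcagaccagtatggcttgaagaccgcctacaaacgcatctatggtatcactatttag
Bglap2: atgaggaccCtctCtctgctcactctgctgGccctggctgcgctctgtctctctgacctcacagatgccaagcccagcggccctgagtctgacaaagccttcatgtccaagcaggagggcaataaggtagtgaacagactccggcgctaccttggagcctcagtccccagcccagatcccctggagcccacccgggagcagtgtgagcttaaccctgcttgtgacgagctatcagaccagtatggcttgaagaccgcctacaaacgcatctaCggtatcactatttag
Bglap3: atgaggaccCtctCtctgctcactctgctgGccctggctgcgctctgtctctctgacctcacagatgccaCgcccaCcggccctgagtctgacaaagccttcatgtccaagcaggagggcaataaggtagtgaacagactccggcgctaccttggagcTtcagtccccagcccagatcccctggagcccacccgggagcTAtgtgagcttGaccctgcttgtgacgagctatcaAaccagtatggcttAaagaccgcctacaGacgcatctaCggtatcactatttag
Bglap and Bglap2 differed at 4 coding positions (10, 14, 31 and 273, counted from 1 at the start codon), an identity of 98.6%. Bglap3 had the base of Bglap2 at all 4. It differed from Bglap at 13 positions (95.5% identity) and from Bglap2 at 9 (96.9% identity).

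After the stop codon the members were closer still. The 134 bases of 3′ UTR were identical in Bglap and Bglap2, and Bglap3 had 2 differences there. The last base that separates Bglap from Bglap2 lies 149 bases before the end of the mRNA. Of 350 windows of 91 bases in the Bglap mRNA, 210 also occurred in Bglap2 and 140 in none of the other members. Of 627 such windows of Bglap3, 29 were shared, all with Bglap2. With windows of 150 bases, Bglap and Bglap2 still shared 92, and none of the 568 windows of Bglap3 was shared. Reads within the shared stretch cannot be given to 1 member, and how many were dropped is not given in the sources used here. The ratio between members is for this reason uncertain as an absolute value. Where 1 member is said to be higher than another, this holds for the UMIs as the authors counted them.

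The promoter is shown for Bglap, the member with the highest level. RefSeq promoters (GRCm38.p6) were matched for Bglap (1 start) and Bglap3 (3 starts), but not for Bglap2. In the 250 bases before the Bglap start, chr3:88384467-88384716 on the minus strand, capitals mark the Runx core motif ACCACA 132 bases before the start and the TATA motif TATAAA 27 bases before it:
Bglap promoter: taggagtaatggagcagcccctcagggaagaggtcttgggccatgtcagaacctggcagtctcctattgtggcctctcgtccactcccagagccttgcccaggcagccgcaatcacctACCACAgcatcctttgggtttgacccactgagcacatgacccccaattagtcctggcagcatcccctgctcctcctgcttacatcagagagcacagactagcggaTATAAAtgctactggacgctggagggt
Searched on both strands in 300 bases around each start, ACCACA was found in 16.8% and TATAAA in 13.6% of 32851 promoters, and neither at the 3 Bglap3 starts. These are matches of exact letters only. The 250 bases before the most upstream Bglap3 start hold tatataag, a near match of TATAAA that the search did not count. The missing TATAAA thus does not show that this start lacks a TATA-like stretch. Whether any of these stretches is used was not tested.

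The tables held 8417, 5745, 4516 and 9229 barcodes at 1, 1.5, 3 and 16 months, of which 8308, 5453, 4180 and 6143 were kept as cells. The 16 month table stood apart, since it lists 31054 genes in place of 27999 and shared 1 or 2 barcodes with each other library, while the other libraries shared 30 to 61 with each other. Age, gene list and barcode set cannot be told apart in comparisons with 16 months. Cells were clustered without the 3 genes and named from markers: OB-like (osteoblast), Ocy-like (osteocyte), LMP-like and EMP-like (late and early mesenchymal progenitor), AD-like (adipocyte lineage), CH-like (chondrocyte) and hematopoietic classes. The OB-like clusters had 5 to 7 of 7 markers raised and the Ocy-like clusters 5 or 6 of 6. LMP-like clusters led by Postn, Ostn, Tnn and Aspn had all 6 markers raised, while those led by Nov, Mfap4 and Nppc or by Chodl and Kera had 3 or 4. Levels are unique molecular identifiers (UMIs) per 1000000 UMIs of a class (CPM).

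Of the classes named as cells, the OB-like cells had the highest osteocalcin level in every library. Bglap stood at 63976 CPM (63758 to 64194) in 301 cells at 1 month, at 114050.1 CPM (113785 to 114316) in 357 cells at 1.5 months, at 107072 CPM (106724 to 107420.4) in 301 cells at 3 months and at 60044 CPM (59826 to 60263) in 195 cells at 16 months. Bglap2 stood at 32969, 58468, 55492 and 29281 CPM in the same order. Bglap3 was far lower, at 1264, 4718, 3573 and 81.8 CPM. Together they took 9.82, 17.7, 16.6 and 8.94% of the UMIs of OB-like cells. Bglap was the most abundant gene at 1, 1.5 and 3 months and ranked 3 at 16 months, behind Col1a1 and Col1a2, which encode type I collagen. Bglap2 ranked 5, 3, 2 and 5, and Bglap3 126, 11, 19 and 1186.

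The OB-like cells were few but carried most of this RNA at 1, 1.5 and 3 months. In order of age they were 3.62, 6.55, 7.20 and 3.17% of the kept cells and held 72.0, 79.4, 84.0 and 44.1% of the UMIs of the 3 genes. At 16 months another 39.3% lay in 239 barcodes with OB-like markers and a median of 1189 UMIs, against 26215 in OB-like cells, and these were kept apart as low-UMI OB-like barcodes. Their summed level, 135809.8 CPM, was above that of the OB-like cells of the library, 89407 CPM. Ocy-like cells came next after OB-like cells, with a summed level of 61604, 76816, 74417 and 43390.4 CPM. At 16 months the level of Ocy-like cells was uneven: the median cell held 4799.8 CPM, and 3 of 52 cells held 37.2% of their osteocalcin UMIs.

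**Figure D1:**
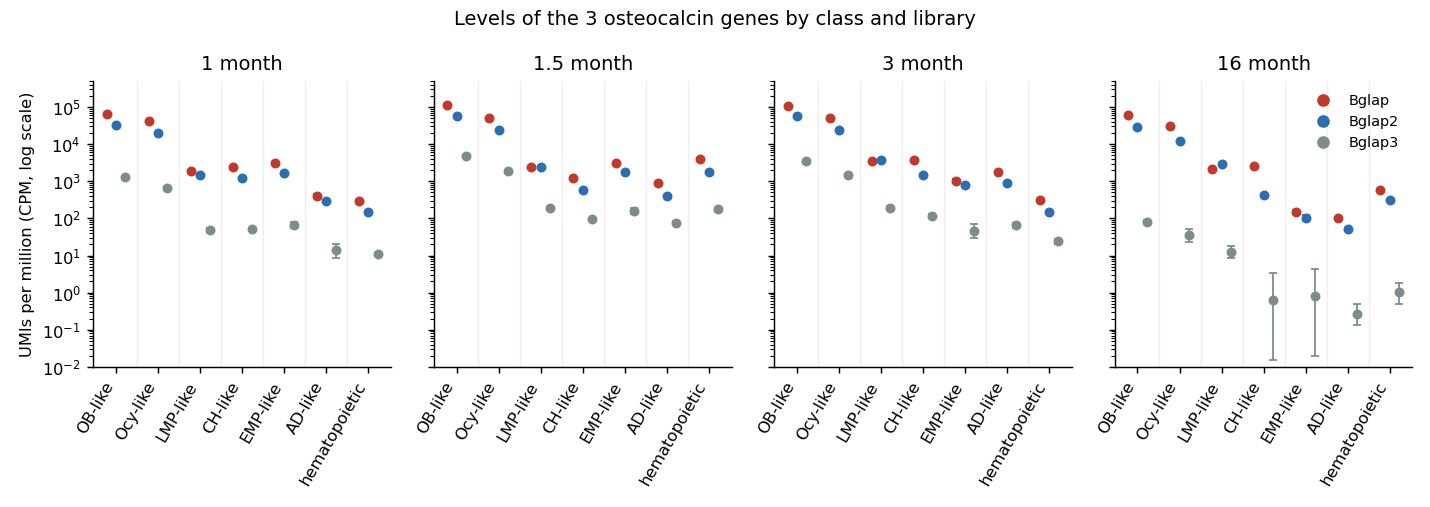
Levels of Bglap, Bglap2 and Bglap3 (CPM, log scale) in cell classes of the 4 libraries, with exact 95% Poisson intervals for counting error. Among the plotted classes, OB-like and Ocy-like cells stood highest for each gene in each library, and OB-like Bglap3 was at 81.8 CPM at 16 months against 1264 to 4718 CPM at the other ages.

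Other mesenchymal classes had lower levels, and in some of them a few cells held most of the RNA. LMP-like cells stood at a summed 3343, 4936, 7412 and 5095 CPM and CH-like cells at 3599, 1885, 5339 and 2925 CPM. In EMP-like cells at 1 month, 8 of 170 cells held 93.4% of the UMIs, and the median cell, at 373 CPM, lay at the hematopoietic median of 380.0 CPM. AD-like cells at 3 months were alike in this, with 87.3% of the UMIs in 21 of 428 cells and a median of 368 CPM. The LMP-like medians, 572, 2086, 2029 and 2360.3 CPM, lay above the hematopoietic medians of 380.0, 1300.5, 375 and 109.6 CPM in each library. CH-like medians, 407, 1288, 1405 and 430.5 CPM, lay well above them at 3 and 16 months only. Whether the few high cells were doublets was not tested.

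Single OB-like cells differed widely in level. The 3 genes took a median of 6.44, 17.5, 12.1 and 6.96% of a cell's UMIs, and at most 29.2, 37.9, 43.1 and 24.2%. At 1 month the lowest 10% of OB-like cells held up to 576 CPM of Bglap and the highest 10% from 139712 CPM. At 1.5 months these limits were 6702 and 190716 CPM. Bglap and Bglap2 moved together from cell to cell, with Pearson's r of their log2 levels over OB-like cells of 0.98, 0.97, 0.96 and 0.94. Bglap and Bglap3 had r of 0.94, 0.96, 0.93 and 0.60. Ibsp, which encodes bone sialoprotein, had r of -0.43, -0.19, -0.30 and -0.20 with the summed level, and Col1a1 0.38, 0.19, 0.60 and 0.32. These are descriptions over cells of a shared library, and a high osteocalcin level lowers the CPM of every other gene in the cell.

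In OB-like cells Bglap outnumbered Bglap2 by nearly the same factor at every age. There were 1.94 (1.93 to 1.95) UMIs of Bglap per UMI of Bglap2 at 1 month, 1.95 (1.94 to 1.96) at 1.5 months, 1.93 (1.92 to 1.94) at 3 months and 2.05 (2.04 to 2.06) at 16 months. Ocy-like cells held relatively more Bglap, at 2.07, 2.07, 2.09 and 2.58, and each of these intervals lay above the OB-like interval of its library. The size of this difference at 16 months depended on the clustering and cell filter, since in 4 of 6 alternatives the Ocy-like ratio was 2.27 to 2.37 and the OB-like ratio 2.12 to 2.14. Among cells with 10000 to 50000 CPM of the 3 genes, the intervals overlapped at 1.5, 3 and 16 months. The Ocy-like and OB-like ratios there were 2.23 (2.13 to 2.33) and 2.14 (2.06 to 2.22) at 1.5 months. At 3 months they were 1.84 (1.69 to 2.01) in 12 Ocy-like cells and 1.83 (1.77 to 1.89) in OB-like cells. At 16 months they were 2.32 (2.22 to 2.42) and 2.24 (2.18 to 2.29). The intervals were apart at 1 month, at 2.30 (2.19 to 2.42) and 1.88 (1.83 to 1.93). In the other ranges that held at least 10 cells of both classes, the Ocy-like interval lay above the OB-like interval. Among OB-like cells with at least 100 UMIs of the 3 genes, the Bglap share had a standard deviation of 6.27, 6.30, 6.80 and 7.48 percentage points, where counting alone gives 1.74, 1.50, 1.90 and 1.66. The balance of the members thus varied between cells of the class by more than the sampling of UMIs.

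LMP-like cells had relatively more Bglap2 in all 4 libraries. They held 1861, 2357, 3514 and 2179.5 CPM of Bglap and 1434, 2384, 3705 and 2903 CPM of Bglap2. The ratio was 1.30 (1.26 to 1.33) at 1 month, 0.989 (0.970 to 1.01) at 1.5 months, 0.948 (0.922 to 0.975) at 3 months and 0.751 (0.724 to 0.778) at 16 months, each interval below the OB-like interval of its library. The clusters led by Ostn and Postn had the lower ratio: 1.09 against 1.71 in the cluster led by Mfap4, Nppc and Nov at 1 month, 0.918 against 1.25 at 1.5 months and 0.889 against 1.30 at 3 months. At 16 months the LMP-like cells formed a single cluster, led by Aspn.

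**Figure D2:**
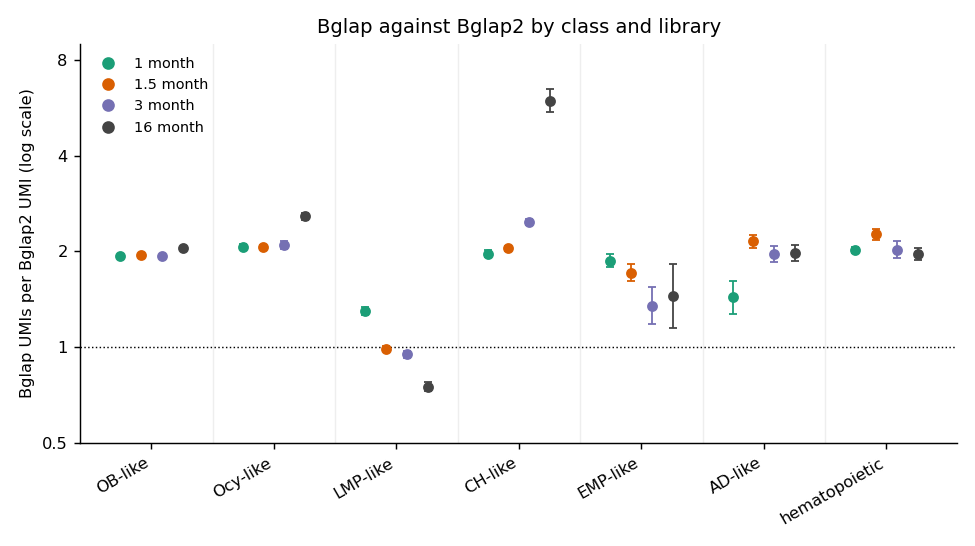
UMIs of Bglap per UMI of Bglap2 (log scale) in cell classes of the 4 libraries, with exact binomial limits; the dotted line marks equal numbers. OB-like cells sat between 1.93 and 2.05, LMP-like cells between 0.751 and 1.30, and CH-like cells reached 5.97 at 16 months.

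Single cells showed the same. Of LMP-like cells with at least 10 UMIs of the 3 genes (235, 740, 246 and 147 cells), 52.8, 43.0, 65.9 and 75.5% held more Bglap2 than Bglap. Of such OB-like cells (279, 356, 299 and 191 cells), 3.58, 1.69, 5.02 and 4.19% did. Among mesenchymal cells with at least 50 UMIs of the 3 genes, Bglap made up under 40% of Bglap and Bglap2 in 15, 98, 57 and 62 cells, and 13, 93, 51 and 32 of them were LMP-like. At 16 months a further 28 came from an unnamed cluster led by Spp1, Dmp1 and Mmp13, whose ratio was 1.33. The cluster led by Spp1 and Dmp1 stood at 2.15 at 1 month and 2.00 at 1.5 months.

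**Figure D3:**
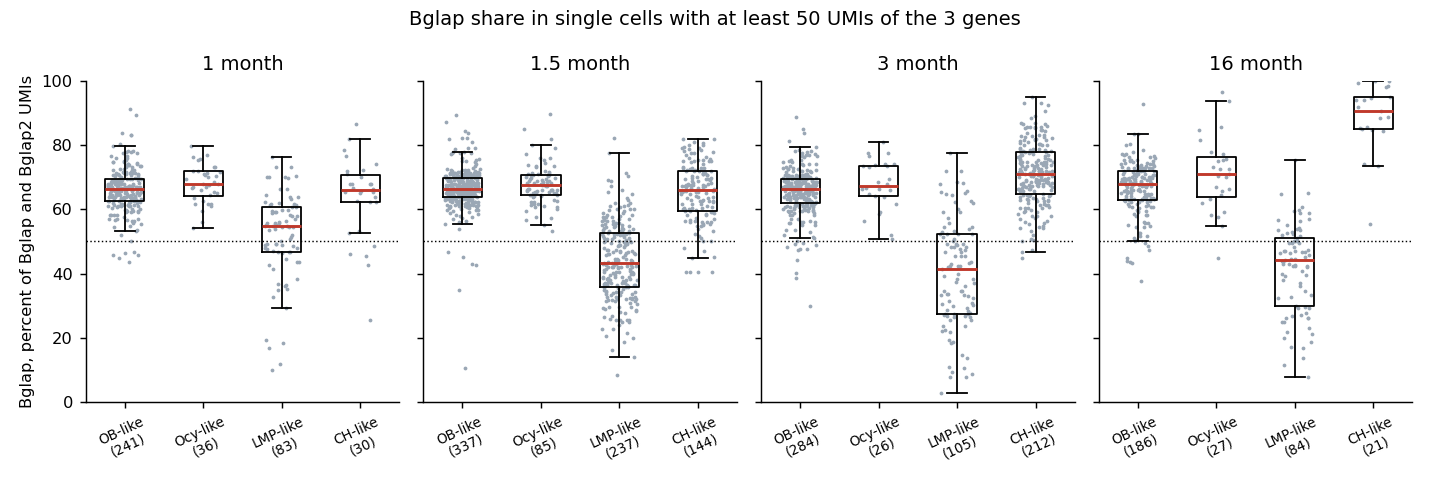
Bglap as percent of Bglap and Bglap2 UMIs in single cells with at least 50 UMIs of the 3 genes (points), with boxes from the lower to the upper quartile and a line at the median. Median shares were 66.3, 66.4, 66.3 and 68.0% in OB-like cells, 54.7, 43.4, 41.5 and 44.1% in LMP-like cells and 66.1, 66.1, 71.2 and 90.8% in CH-like cells.

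The difference between LMP-like and OB-like cells was also present among cells of like level. With 2000 to 10000 CPM of the 3 genes in the cell, the ratio at 1 month was 1.83 in 34 OB-like and 0.833 in 134 LMP-like cells. At 1.5 months it was 2.30 in 23 and 0.804 in 335 cells, at 3 months 1.64 in 17 and 0.645 in 142, and at 16 months 1.67 in 16 and 0.648 in 87. From 10000 to 50000 CPM the LMP-like ratio was 1.33, 0.893, 0.700 and 0.797 and the OB-like ratio 1.88, 2.14, 1.83 and 2.24. The exception was the lowest range, 500 to 2000 CPM, at 1.5 months, where LMP-like cells stood at 1.84 and 12 OB-like cells at 1.58. The hematopoietic median of that library, 1300.5 CPM, lies inside this range.

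**Figure D4:**
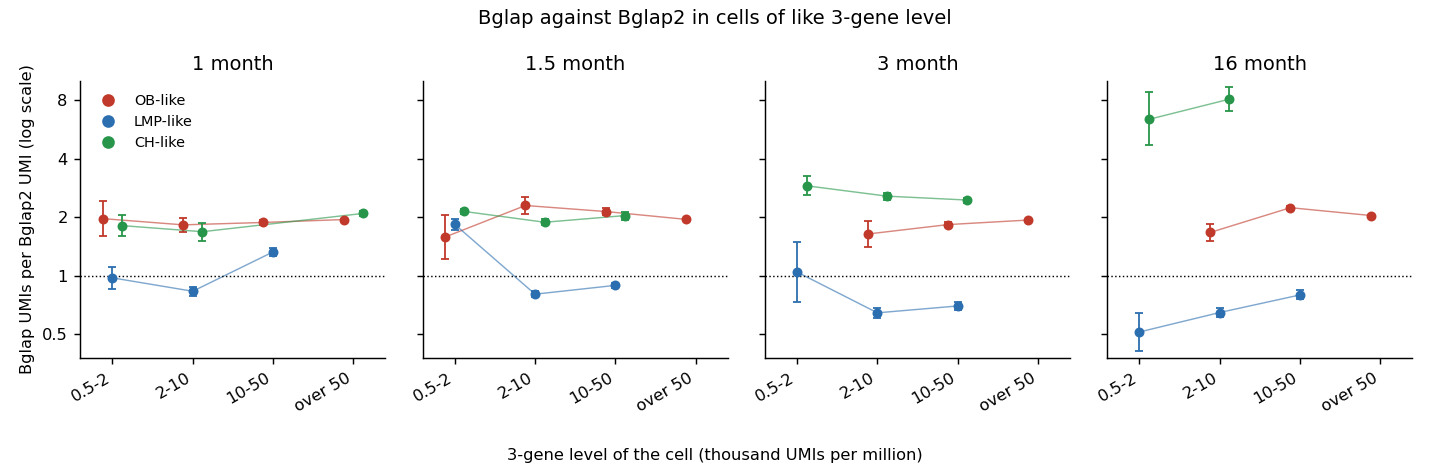
UMIs of Bglap per UMI of Bglap2 (log scale) in OB-like, LMP-like and CH-like cells grouped by the summed CPM of the 3 genes in the cell, with counting intervals; groups under 10 cells are left out. Above 2000 CPM the LMP-like points lay below the OB-like points in each library, for example 0.645 against 1.64 at 3 months.

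CH-like cells differed in the other direction at 1.5, 3 and 16 months, by little at 1.5 months. Their ratio was 1.97 (1.92 to 2.02) at 1 month, 2.05 (2.01 to 2.09) at 1.5 months, 2.48 (2.43 to 2.54) at 3 months and 5.97 (5.50 to 6.48) at 16 months. At 16 months Bglap stood at 2505 CPM and Bglap2 at 419.7 CPM in 119 cells. Of the 21 CH-like cells with at least 50 UMIs of the 3 genes at that age, 18 had Bglap over 80% of Bglap and Bglap2, and of 186 OB-like cells 5 did. At 3 months it was 39 of 212 CH-like and 4 of 284 OB-like cells. The 3 month cluster led by Col10a1, a gene of hypertrophic chondrocytes, had the highest ratio of the CH-like clusters at that age, 3.05. At 16 months the cluster led by Serpina1c, Ihh and Col10a1 stood at 4.68 in 64 cells and that led by Cytl1 at 6.42 in 55.

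The Bglap3 share of osteocalcin UMIs was far lower at 16 months than at the other ages in OB-like, Ocy-like and LMP-like cells. In OB-like cells Bglap3 made up 1.29% (1.26 to 1.32) at 1 month, 2.66% (2.63 to 2.69) at 1.5 months, 2.15% (2.11 to 2.19) at 3 months and 0.0914% (0.0827 to 0.101) at 16 months. Ocy-like cells stood at 1.07, 2.43, 1.95 and 0.0807% and LMP-like cells at 1.45, 3.96, 2.61 and 0.2504%. Set against Bglap2 alone, OB-like cells held 3.83, 8.07, 6.44 and 0.279 UMIs of Bglap3 per 100 of Bglap2, and LMP-like cells 3.37, 8.21, 5.22 and 0.440. Set against Bglap, OB-like cells held 1.98, 4.14, 3.34 and 0.136 per 100 and LMP-like cells 2.60, 8.30, 5.50 and 0.585, which lie farther apart. Between single OB-like cells the Bglap3 share had a standard deviation of 0.439, 0.567, 0.633 and 0.130 percentage points, against 0.411, 0.506, 0.575 and 0.107 from counting alone. Counting alone thus gave most of this spread. Because Bglap3 has far fewer UMIs than Bglap, these values cannot show whether its share varied less between cells than the Bglap share. OB-like cells gave 6523, 29313, 12140 and 395 UMIs of Bglap3.

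**Figure D5:**
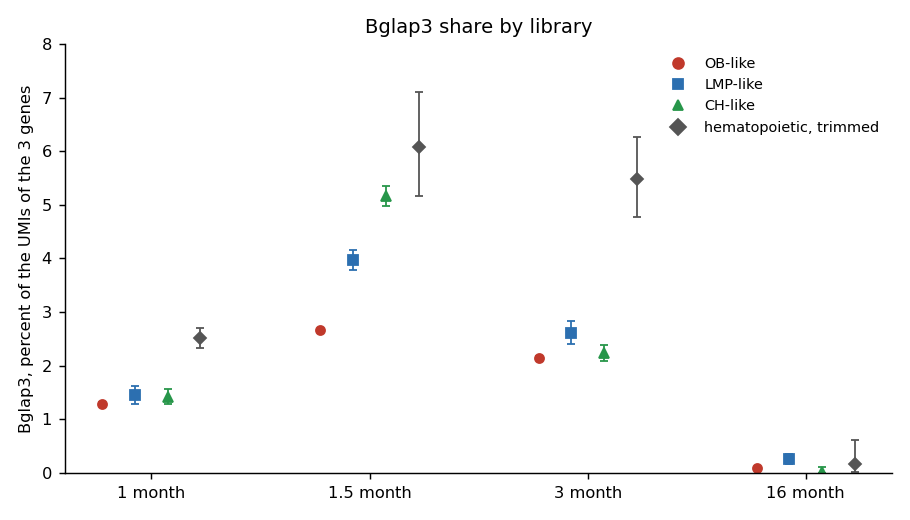
Bglap3 as percent of the UMIs of the 3 genes by class and library, with exact binomial intervals; the hematopoietic points leave out the 5% of cells with the highest level. OB-like cells stood at 1.29, 2.66, 2.15 and 0.0914% and hematopoietic cells at 2.51, 6.08, 5.49 and 0.169%.

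Osteocalcin UMIs were also found in hematopoietic cells. The part of free RNA in them was not tested. Neutrophil-like cells stood at a summed 424 CPM at 1 month (1840 cells), 489 CPM at 3 months (479 cells) and 209 CPM at 16 months (341 cells). A UMI of Bglap was found in 91.2, 77.7 and 59.2% of them, at median depths of 11602, 6118 and 7256 UMIs, and in every OB-like cell at 1 and 3 months and 99.5% of them at 16 months, so that a UMI of Bglap in a cell says little here. Thinned to 3000 UMIs, with 0, 54 and 51 shallower cells left out, the neutrophil-like shares were 51.8, 53.6 and 27.6%. At 1.5 months there were only 40 neutrophil-like cells, and 2 of them held 92.2% of the class's osteocalcin UMIs. Another 75 cells at 1 month and 81 at 3 months had all 7 neutrophil markers raised but had clustered with mesenchymal cells. They were kept apart as mixed, as were 66 cells with erythroid markers at 16 months, and are in no hematopoietic value here. Mixed cells held 5.51, 0.158 and 1.33% of the osteocalcin UMIs at 1, 3 and 16 months, against 1.56, 0.257 and 0.0716% in neutrophil-like cells. Whether they were doublets was not tested. Over all hematopoietic cells the 3 genes stood at 462, 6058, 476 and 903 CPM, which is 0.470, 3.42, 0.287 and 1.01% of the OB-like level. Few cells held most of this at 1.5 months, where 8 of 158 cells had 79.9% of the UMIs, and at 16 months, where 40 of 792 had 88.7%. Without the 5% of cells highest in the 3 genes, the level was 379, 1316, 374 and 125 CPM, or 0.386, 0.743, 0.225 and 0.140% of the OB-like level. At 1.5 months this trimmed level lay next to the AD-like level of 1353 CPM and below the CH-like level of 1885 CPM, and the level over all hematopoietic cells was above both.

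In neutrophil-like cells Bglap and Bglap2 stood near their OB-like ratio at 1, 3 and 16 months. Over hematopoietic cells without the highest 5%, the ratio was 2.08, 2.14, 2.05 and 1.80 in order of age. The Bglap share of these cells was 65.8% (65.3 to 66.4) at 1 month and 64.2% (61.4 to 67.0) at 16 months. Both intervals leave out the OB-like share, 65.1 and 67.2%, while the intervals at 1.5 and 3 months hold it. Neutrophil-like cells had 1.98 (1.90 to 2.06) UMIs of Bglap per UMI of Bglap2 at 1 month and 1.94 (1.65 to 2.27) at 16 months, and both intervals held the OB-like value. At 3 months it was 2.16 (1.94 to 2.40) against 1.93. As a share of the UMIs of the 3 genes, Bglap in neutrophil-like cells differed from OB-like cells by -0.440 (-1.35 to 0.465) percentage points at 1 month, 0.596 (-1.71 to 2.85) at 3 months and -1.204 (-4.84 to 2.30) at 16 months, all intervals reaching 0, and by 3.72 (2.77 to 4.65) at 1.5 months, where 2 cells held most of the UMIs. With at least 1000 genes per cell, the 16 month difference was -2.87 (-4.00 to -1.75), an interval that leaves out 0. Bglap3 did not keep to its OB-like share. It made up 2.63% (2.34 to 2.95) of osteocalcin UMIs in neutrophil-like cells at 1 month, against 1.29% in OB-like cells, and 4.81% (3.85 to 5.93) at 3 months, against 2.15%. At 16 months there was no UMI of Bglap3 among the 702 osteocalcin UMIs of neutrophil-like cells, which allows a share of up to 0.427%. With the trimmed hematopoietic level taken off each gene, the ratio of Bglap to Bglap2 was 1.23, 0.761, 0.913 and 0.734 in LMP-like and 1.95, 1.86, 2.52 and 6.46 in CH-like cells. The order of LMP-like, OB-like and CH-like cells stayed as it was except at 1.5 months, where CH-like cells came to lie below OB-like cells. Other classes changed place, such as AD-like cells at 1 month (1.43 to 0.964) and at 16 months (1.98 to 3.06). There the trimmed level was 53.4 and 81.3% of the AD-like level.

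Genes of an osteoblast matrix list were also found in hematopoietic cells. Over all hematopoietic cells, the 15 genes stood at a median of 1.28, 14.1, 1.14 and 2.60% and at least 0.740, 2.61, 0.431 and 1.36% of their OB-like level, and Bglap at 0.471, 3.58, 0.283 and 0.996%. All 15 lay above Bglap in this measure at 1, 3 and 16 months, and 14 of 15 at 1.5 months, where Car3, a carbonic anhydrase, stood at 2.61%. Sparc, which encodes osteonectin, stood at 1.83, 16.7, 1.58 and 2.90%. Some genes of the list, such as Spp1, are also made by hematopoietic cells. In OB-like cells 14 of the 15 had enough counts to compare ages. From 3 to 16 months 1 was at least 2-fold higher (Omd) and 1 lower (Alpl), where 6.17% of all genes were higher and 4.62% lower. From 1 to 16 months 3 were lower (Spp1, Alpl and Cgref1), against 7.52% of all genes, and the median log2 difference of the 14 was 0.15, against -0.02 over all genes. Omd was also lower from 1 to 3 months, where 3.04% of genes were, and higher from 1.5 to 16 months, where 10.5% were. No gene of the list passed 2-fold in the other pairs of ages.

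Between ages, the OB-like levels of Bglap and Bglap2 were high and low at the same ages. On the scale of CPM plus a pseudocount of 1, Bglap at 1.5 months was 1.78 times and Bglap2 1.77 times its 1 month level, and at 3 months 1.67 and 1.68 times. At 16 months Bglap stood at 0.561 and Bglap2 at 0.528 times its 3 month level. Neither passed 2-fold in any of the 6 pairs of ages, while Bglap3 did in 5. Bglap2 lay at the limit from 1.5 to 16 months, at 0.5008 times, and Bglap at 0.526 times. With the 3 genes left out of the total, Bglap at 0.476 and Bglap2 at 0.453 times did pass it in that pair, and Bglap2 at 0.483 times from 3 to 16 months. Bglap3 was 3.73-fold higher at 1.5 than at 1 month, where 2.71% of 5823 genes were at least 2-fold higher, and 2.83-fold higher at 3 than at 1 month, where 3.83% were. At 16 months it differed by -3.93, -5.83 and -5.43 on the log2 scale from 1, 1.5 and 3 months, where 7.52%, 5.05% and 4.62% of genes were at least 2-fold lower. In the pairs with 16 months 10.3%, 10.5% and 6.17% of genes were at least 2-fold higher. At least 2-fold lower were 2.80% of genes from 1 to 1.5 months, 3.04% from 1 to 3 months and 1.39% from 1.5 to 3 months, where 1.96% were higher and Bglap3 differed by -0.40.

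The low Bglap3 at 16 months stood among a small set of genes of mixed kind. Of the 5823 genes, 15, Bglap3 included, were at least as far below their lowest level at the other ages. The others, chosen after their values were seen, include Atp5o, Srp54b, Tonsl and Fdx1l, which had no UMI in OB-like cells at 16 months, and Rpl13a, a ribosomal protein gene, which stood at 2523 CPM at 3 months and 109 CPM at 16 months. The cartilage genes Col9a2, Col9a3 and Ucma are also in this set. Col2a1, the main cartilage collagen, stood at 333, 2364, 1305 and 1083 CPM in OB-like cells. The part of the gene list and of chondrocyte RNA in these values was not tested.

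The OB-like level at 3 and 16 months depended on which clusters or barcodes were counted in the class. At 3 months it held 2 clusters, 1 of 222 cells with 189567 CPM of the 3 genes and a ratio of 1.94, and 1 of 79 cells, led by Cadm1, Dkk1 and Lrp4 among others, with 39712 CPM and a ratio of 1.70. At 16 months the low-UMI OB-like barcodes held 135809.8 CPM, 2.23 UMIs of Bglap per UMI of Bglap2 and 0.0840% Bglap3, against 89407 CPM in OB-like cells. Their low Bglap3 share was thus like that of the OB-like cells of the library.

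Genes for the carboxylation and processing of osteocalcin were mostly within 2-fold between ages in OB-like cells. Ggcx, the gamma-carboxylase, stood at 38.4, 41.2, 28.6 and 25.3 CPM in OB-like cells, and Vkorc1, which recycles vitamin K, at 749, 625, 559 and 366 CPM. Of 6 genes on this list, 5 had a mean of at least 10 CPM in OB-like cells. From 1 to 16 months 1 of the 5 passed 2-fold, Vkorc1, which was lower, as were 7.52% of all genes, and none did in the other 5 pairs of ages. In that pair Vkorc1 stood at 0.490 and Ggcx at 0.667 times its 1 month level. The 5 genes' median log2 difference from 1 to 16 months was -0.58, against -0.02 over all genes.

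Of 7 genes for other proteins with Gla residues, 3 had enough counts in OB-like cells, and these 3 stood higher in another class in each library. Mgp, the matrix Gla protein, which restrains mineralization of cartilage and vessels, stood at 85.6, 337, 197 and 31.7 CPM in OB-like and 8173, 4455, 9908 and 45279 CPM in CH-like cells. Gas6, a ligand of TAM receptors, stood at 8.33, 68.4, 44.2 and 58.2 CPM in OB-like and 1961, 3579.9, 2861 and 3503 CPM in AD-like cells. Pros1, which encodes protein S, stood at 16.5, 17.5, 17.1 and 16.4 CPM in OB-like and 113, 134, 132 and 132 CPM in AD-like cells. Mgp and Gas6 were at least 2-fold higher in OB-like cells from 1 to 1.5 and from 1 to 3 months, where 2.71% and 3.83% of all genes were. From 1 to 16 months Gas6 was higher, as were 10.3% of genes, and Mgp lower, as were 7.52%. Mgp was also lower from 1.5 and from 3 to 16 months, where 5.05% and 4.62% of genes were. In order of age, CH-like cells were 6.93, 37.4, 21.4 and 1.94% and AD-like cells 2.68, 21.1, 10.2 and 59.4% of the kept cells. The part of free RNA from these classes in the OB-like values of Mgp and Gas6 was not tested. Gprc6a, which has been described as a receptor of osteocalcin, had no UMI in mesenchymal cells of any library, which allows at most 0.581, 0.483, 0.883 and 0.621 CPM in OB-like cells. Gpr158, another described receptor, had 1 UMI among mesenchymal cells of all libraries, and Insr, the insulin receptor, stood at 6.39, 6.12, 3.53 and 11.2 CPM in OB-like cells.

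Of 14 transcription factors known to act on osteocalcin genes, 10 had enough counts in OB-like cells. Runx2, which osteoblast formation requires, stood at 79.0, 84.7, 107 and 147 CPM, Sp7 at 93.6, 115, 111 and 90.2 CPM and Vdr, the vitamin D receptor, at 36.8, 62.6, 107 and 146 CPM. From 1 to 16 months 4 of the 10 were at least 2-fold higher, among them Vdr, Cebpb and Twist1, where 10.3% of all genes were, and the median log2 difference of the 10 was 0.93, against -0.02 over all genes. From 1.5 to 16 months 3 were higher, against 10.5% of genes. From 3 to 16 months 1 of the 10 passed 2-fold, where 6.17% of genes were higher. This was Twist1, which holds back Runx2 and was higher (71.5 and 229.8 CPM). From 1 to 3 months 3 were at least 2-fold higher (Vdr, Cebpb and Hes1) and 1 lower (Atf4), where 3.83% of all genes were higher and 3.04% lower. From 1 to 1.5 months Cebpb alone was higher, against 2.71%. LMP-like cells, with far less osteocalcin, held 69.2, 95.7, 97.6 and 258 CPM of Runx2, near the OB-like level at 1, 1.5 and 3 months.

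The genes most like osteocalcin over 56 pairs of class and library were mostly genes of osteoblasts. Pearson's r of log2(CPM + 1) with the summed level was 0.92 for Mlip, 0.89 for Cpz, 0.89 for Col1a1, 0.88 for Cgref1, 0.88 for Col1a2, 0.88 for Kcnk1, 0.87 for Col22a1, 0.86 for Ifitm5, 0.86 for Car3 and 0.86 for Ptgis, the highest of 4868 genes. Col1a1, Cgref1, Col22a1 and Ifitm5 are also among the markers that named the OB-like clusters, so their r is not independent of the class names. Classes of a library share free RNA and depth, and the values are descriptions. Between members r was 0.99 for Bglap and Bglap2, 0.81 for Bglap and Bglap3 and 0.83 for Bglap2 and Bglap3. The flanking genes stood low in OB-like cells, Pmf1 at 20.3, 16.6, 18.5 and 10.97 CPM and Paqr6 at 0.387, 0, 0.294 and 0 CPM, although Paqr6 ends 74 bases from Bglap3. The reporter tomato stood at 3106, 3595, 3498 and 4239.8 CPM in OB-like cells and at 2353, 2134, 1887 and 883 CPM in hematopoietic cells.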

How the data were processed

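Single-cell libraries of Td+ endosteal bone marrow cells (4 libraries, 1 per age) were analysed from the UMI count tables deposited by the authors, which hold whole-number counts per gene and barcode with no normalization. Per the submitters' processing notes, Cell Ranger 3.0.2, Seurat 2 and the mm10 build were used. How reads that match several genes were treated is not given in the sources used here. A barcode was taken as a cell if it had 200 to 6000 genes and no more than 5% of its UMIs from mitochondrial genes, which left median depths of 10279.5, 9621, 6264 and 9670.0 UMIs and 106779836, 61337790, 31013604 and 67716907 UMIs in all at 1, 1.5, 3 and 16 months. Cells were clustered with Seurat 5.3.0 in R 4.3.3, the 1 and 1.5 month libraries after canonical correlation alignment, with 2000 variable genes without the 3 genes, 30 components and a resolution of 0.8, and mesenchymal cells were clustered again. Clusters were named from marker lists by a scoring rule set after the data were seen. Scrublet (scanpy 1.11.5) called 350, 97, 57 and 9 doublets, too few at 16 months to have worked, so no cells were removed by it, and an alternative leaves out the 8% with the highest scores. UMIs were summed per class and library with exact Poisson intervals for CPM and exact Clopper-Pearson intervals for shares, using Python 3.11.15, numpy 2.4.6, pandas 2.3.3 and scipy 1.17.1, with figures by matplotlib 3.10.9. Age differences in OB-like cells used genes with a mean of at least 10 CPM over the libraries and log2(CPM + 1), and with 1 library per age no test was run. Class-level correlations used genes reaching 100 CPM in a class. Scripts were tested on simulated data. Named genes were the 3 members, genes of the lists (1 is not reported here) and the 10 genes most like the members; others are said to be chosen after their values were seen. The members and lists were chosen with earlier results of these data known. Alternatives varied the resolution, the filters, the doublet removal, the alignment, the denominator and the averaging.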

Additional observations from a re-analysis of the deposited data

Results flagged for a closer look

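Barcodes outside the cell filter, which no comparison above uses, held osteocalcin RNA above the level of hematopoietic cells. There were 109, 292, 336 and 3086 such barcodes at 1, 1.5, 3 and 16 months, and their summed level of the 3 genes was 5471, 15712, 6762 and 7689.5 CPM, against 379, 1316, 374 and 125 CPM in hematopoietic cells without the highest 5% and 462, 6058, 476 and 903 CPM in all hematopoietic cells. They held 1.11, 2.13, 1.64 and 16.7% of the osteocalcin UMIs of their library. The ratio of Bglap to Bglap2 in them was 1.71, 1.82, 1.99 and 1.82, and Bglap3 made up 1.49, 2.95, 2.46 and 0.105%, again lowest at 16 months. Their cell types were not assigned.

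The low-UMI OB-like barcodes at 16 months stood at 135809.8 CPM, above the 89407 CPM of the OB-like cells of that library, with a median of 1189 UMIs. The median barcode of this cluster held 1499 CPM, and 12 of 239 barcodes held 40.5% of its osteocalcin UMIs.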

How the results depend on the processing

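No paired analysis was possible because each age has 1 library and the labels give no replicate numbers that groups share. A value counts as moved where it left the counting interval of its main value, which is narrow at these depths. By this rule 77 of 190 recomputed values moved and 113 did not. A change of sign was possible only for the Bglap share of neutrophil-like minus OB-like cells. Its main interval left out 0 at 1.5 months only, and there the sign held at every setting. Over the settings this difference ran from -0.443 to 0.204 points at 1 month and from -0.834 to 1.10 at 3 months. The LMP-like ratio stayed below the OB-like ratio at every setting, and the OB-like Bglap3 share stayed lowest at 16 months. The LMP-like and CH-like ratios were not among the results planned in advance, at any setting. The cause of a change was not tested. With 1 library per age, the spread between mice is unknown, and age cannot be told apart from library. Reads in the shared 3′ part limit the ratios between members.

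At a clustering resolution of 0.5, the summed OB-like level was 178133, 167461 and 108086 CPM at 1.5, 3 and 16 months, the OB-like Bglap share was 68.1% at 16 months and the LMP-like ratio was 1.11 and 0.951 at 1 and 1.5 months. At a resolution of 1.2, the summed OB-like level was 98818, 177917, 165337 and 112250.5 CPM at 1, 1.5, 3 and 16 months, the OB-like Bglap share was 68.1% at 16 months, the LMP-like ratio was 1.15, 0.868 and 0.651 at 1, 1.5 and 3 months and the CH-like ratio was 2.16 at 1.5 months. With up to 10% mitochondrial UMIs, the summed OB-like level was 96776, 173586, 162634 and 103254 CPM at 1, 1.5, 3 and 16 months, the OB-like Bglap share was 67.9% at 16 months, the Bglap share of neutrophil-like minus OB-like cells was 2.37 points at 1.5 months, the LMP-like ratio was 1.14, 0.929, 0.903 and 0.819 at 1, 1.5, 3 and 16 months and the CH-like ratio was 1.78 at 1 month. With at least 1000 genes per cell, the summed OB-like level was 98524, 178808, 168284 and 113344 CPM at 1, 1.5, 3 and 16 months, the OB-like Bglap share was 68.1% at 16 months, the Bglap share of neutrophil-like minus OB-like cells was 2.09 points at 1.5 months and the LMP-like ratio was 1.11, 0.948 and 0.842 at 1, 1.5 and 16 months. Without the 8% of cells with the highest doublet scores, the summed OB-like level was 96741, 182485, 169322 and 116172 CPM at 1, 1.5, 3 and 16 months, the OB-like Bglap share was 68.1% at 16 months, the LMP-like ratio was 1.12, 0.847 and 0.867 at 1, 1.5 and 3 months and the CH-like ratio was 2.09 at 1.5 months. With every library clustered on its own, the summed OB-like level was 94136 and 176889 CPM at 1 and 1.5 months and the LMP-like ratio was 1.12 and 0.918 at 1 and 1.5 months. The 3 and 16 month libraries were clustered on their own in the main setting too. Their values could not move here and count among those that did not. With the 3 genes left out of the total, the summed OB-like level was 108904, 215416, 199238 and 98186 CPM at 1, 1.5, 3 and 16 months. As a mean of the CPM of single cells, the summed OB-like level was 86181, 161231, 135636 and 79928 CPM at 1, 1.5, 3 and 16 months. As a mean of the percentages of single cells, the OB-like Bglap share was 64.9, 63.7 and 66.7% at 1.5, 3 and 16 months and the OB-like Bglap3 share was 1.53 and 2.19% at 1 and 3 months. With the low-UMI OB-like barcodes added (chosen after seeing the data, as are the next 5 settings), the summed OB-like level was 106586 CPM at 16 months and the OB-like Bglap share was 68.0% at 16 months. With only the larger OB-like cluster, the summed OB-like level was 189567 CPM at 3 months. With the hematopoietic level taken off, the LMP-like ratio was 1.23, 0.761 and 0.913 at 1, 1.5 and 3 months and the CH-like ratio was 1.86 at 1.5 months. Without the 5% of LMP-like cells with the most osteocalcin UMIs, the LMP-like ratio was 0.993, 0.935, 0.668 and 0.689 at 1, 1.5, 3 and 16 months. Without such CH-like cells, the CH-like ratio was 1.85, 2.11, 2.63 and 8.94 at 1, 1.5, 3 and 16 months. Without the 5% of neutrophil-like cells with the highest level, the Bglap share of neutrophil-like minus OB-like cells was 0.512 points at 1.5 months.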
